A study of Mus musculus with 3 samples.

Results

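The 10 genes described here encode chains of cell-surface cytokine receptors: Il21r, Il2rg, Il4ra, Il13ra1, Il15ra, Il6ra, Il6st, Il10ra, Ifngr1 and Ifngr2. They are 10 of the 34289 features counted in single cells from the ear epidermis of male Cd1 mice, and all 10 were found by symbol, each under 1 identifier. The list was chosen because of how these genes moved in Langerhans cells of these same libraries, so their levels and changes in those cells are a description and carry no test. Langerhans cells, which sample antigen within the epidermis and carry it to lymph nodes, were gated as cells in which Cd74, H2-Aa, H2-Ab1 and H2-Eb1 made up at least 2% of the transcript counts and which held at least 2 counts of Epcam, a cell adhesion gene.

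The study compared 3 conditions with 1 single-cell 3' RNA library each and no replicates. Control mice received only a depilatory cream (Nair) and are called untreated in the labels. A second group received croton oil, an irritant, with acetone and olive oil in the mixture on the ears, and the third was punched repeatedly with microneedles. Treated tissue was taken 48 hours after treatment began, and the labels state neither how many animals made up a library nor whether animals were pooled. Epidermis was freed with trypsin, dead cells were removed and Langerhans cells enriched on magnetic columns. With 1 library per group, a difference between conditions cannot be told apart from a difference between libraries. All intervals below are 95% intervals for counting error within a library only.

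The libraries held 6945 to 9876 cells, with medians of 11623 to 16427 unique molecular identifiers per cell (UMIs, each standing for 1 captured transcript). The gate took 8648 untreated, 5916 croton oil and 5290 microneedle cells, or 95.5%, 77.6% and 81.7% of the retained cells, with medians of 11526, 12576 and 17336 UMIs. All 10 Langerhans cell markers listed stood at 20 CPM (UMIs of a gene among 1000000 UMIs of the summed cells) or more in the gated cells of each library. Cd207, which encodes langerin, was at 568, 327 and 466 CPM in the order untreated, croton oil, microneedle, an order used throughout. Markers of other cell types in the gated cells moved with the treatments. The 8 T cell markers summed to 219.7, 977 and 602 CPM, nearly all of it Il7r, and Cd3g stood at 0.873, 24.8 and 3.09 CPM. The 8 neutrophil markers summed to 2496, 2691 and 3991 CPM, nearly all of it Il1r2, and Retnlg was at 0 in the untreated cells. The 9 monocyte or macrophage markers summed to 350.0, 1770 and 768 CPM, of which C1qa held 59.3, 1481 and 485, while Ly6c2 stayed under 0.1 CPM in each library. The libraries shared 32, 17 and 13 cell barcodes in pairs, at most 0.388% of a library.

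Cytokine receptors of this family have no kinase of their own. A ligand brings receptor chains together, Janus kinases bound to the chains then phosphorylate STAT transcription factors, and SOCS proteins made in response damp the signal. Chains are shared: the common gamma chain, encoded by Il2rg, serves the receptors for IL-2, IL-4, IL-7, IL-9, IL-15 and IL-21, and gp130, encoded by Il6st, serves the IL-6 family. In skin, cytokines made by T cells, keratinocytes and other cells reach Langerhans cells through such receptors.

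The main finding concerned Il21r, which encodes the ligand-binding chain for IL-21 and pairs with Il2rg. These genes lie at chromosome 7, 125202601 to 125232756, plus strand (Il21r, ENSMUSG00000030745) and chromosome X, 100307984 to 100311861, minus strand (Il2rg, ENSMUSG00000031304), in GRCm39. Il21r lies 19756 bases beyond the end of Il4ra (chromosome 7, 125151079 to 125182844, plus strand), another member of the list, and no protein-coding gene lies between them. The 250 bases before each RefSeq start of the IL-21 receptor pair are shown because these chains had the highest fold changes of the list with croton oil. The sequences come from RefSeq's GRCm38.p6 table and match GRCm39 exactly once each, at chr7:125202351-125202600 for Il21r and, on the minus strand, chrX:100311862-100312111 for Il2rg.
Il21r: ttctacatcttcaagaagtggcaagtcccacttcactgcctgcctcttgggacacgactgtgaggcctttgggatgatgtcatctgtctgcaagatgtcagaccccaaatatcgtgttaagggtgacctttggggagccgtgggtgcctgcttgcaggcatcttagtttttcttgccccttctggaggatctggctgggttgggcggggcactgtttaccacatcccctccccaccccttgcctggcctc
Il2rg: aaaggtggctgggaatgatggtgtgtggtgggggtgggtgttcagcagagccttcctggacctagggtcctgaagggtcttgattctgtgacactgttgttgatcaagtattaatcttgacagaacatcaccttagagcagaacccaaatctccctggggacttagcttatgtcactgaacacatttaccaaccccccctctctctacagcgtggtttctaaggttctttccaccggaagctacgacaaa
Neither window held any of 4 motifs searched on both strands, and capitals would have marked a match. The motifs were TTCNNNGAA for STATs, TGANTCA for AP-1, the NF-kB motif, and, for interferon response, GAAA and GAAA with 2 bases of any kind between them. Of 32851 windows of this length in the table, 7.02%, 6.75%, 7.25% and 2.98% held them, in that order. Absence of these letters from a short window says nothing about binding of the factors.

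Il21r was low in untreated Langerhans cells and among the highest chains after both injuries. Its level was 7.13 CPM (interval 6.63 to 7.65) in untreated cells. After croton oil it was 202 CPM (199 to 205), and after microneedle 220.2 CPM (217 to 223), from 768, 16432 and 21252 UMIs. Both treated libraries were thus high and the untreated library low, with no overlap of the intervals. The ratio of levels was 28.4-fold (26.4 to 30.5) for croton oil and 30.9-fold (28.7 to 33.2) for microneedle. On the scale used for all genes, log2((CPM + 5)/(CPM + 5)), which understates changes of low genes, these were 4.09 and 4.21. Il21r ranked 9 of 6837 genes by that value for croton oil and 2 of 6702 for microneedle, and it was chosen for this change. The injuries differed little from each other, by -0.12 for croton oil against microneedle, and the sign turned with the scaling (0.01 with TMM factors).

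The share of cells with the transcript was higher in the treated libraries too. Each cell was thinned to 3000 UMIs, since depth per cell differed. Il21r was then seen in 1.81% (1.54 to 2.12) of 8546 untreated, 35.7% (34.5 to 36.9) of 5884 croton oil and 32.7% (31.4 to 34.0) of 5231 microneedle cells, and 102, 32 and 59 shallower cells were left out. Without thinning the shares were 5.59%, 67.7% and 63.4%. A thinned cell with the transcript held 1.07, 1.61 and 1.87 UMIs of it on average, and 0.129%, 13.1% and 14.7% of cells held at least 2.

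**Figure D1:**
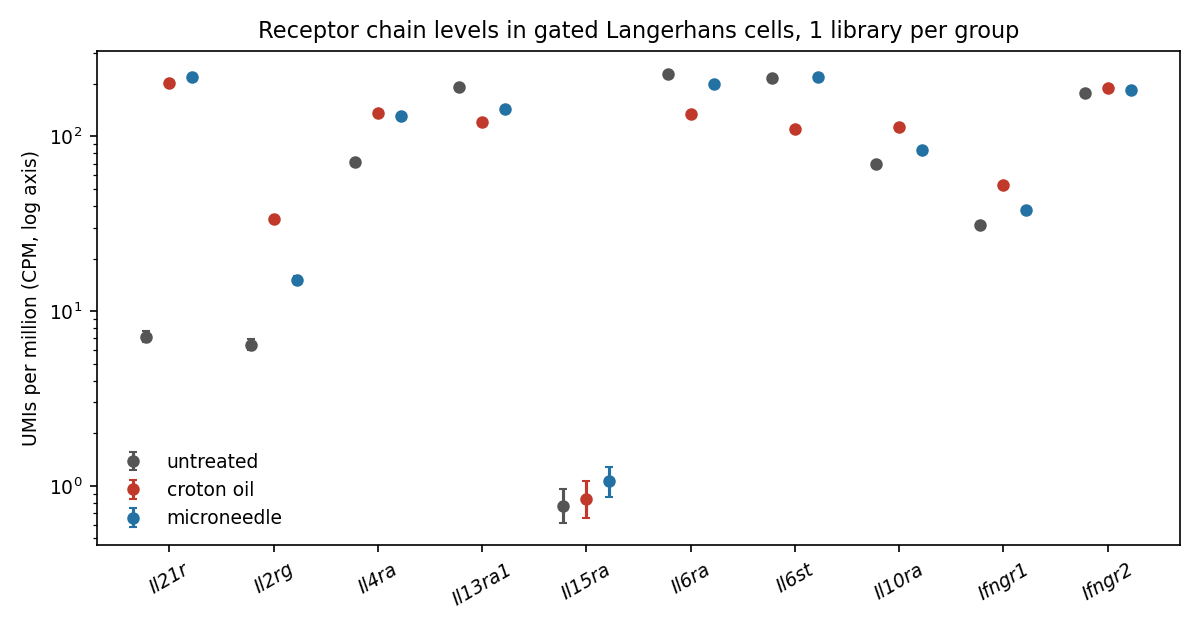
Level of each receptor chain in gated Langerhans cells (CPM, log axis), 1 point per library with its exact Poisson 95% interval, mostly smaller than the point. Il21r stands at 7.13 CPM in the untreated library and at 202 and 220.2 CPM after croton oil and microneedle, while Il15ra lies near 1 CPM in each library.

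Il2rg, the partner chain, had fewer counts than Il21r in both treated libraries. It stood at 6.43 CPM (5.96 to 6.93) in untreated cells. It was 33.7 CPM (32.5 to 35.0) after croton oil and 15.0 CPM (14.3 to 15.8) after microneedle. Croton oil was high, microneedle between, and untreated low, with no overlap. The ratios to untreated were 5.24-fold (4.82 to 5.70) for croton oil and 2.34-fold (2.13 to 2.56) for microneedle. On the log2 scale with the pseudocount these were 1.76 and 0.81. T cell-like cells carried Il2rg at 243 CPM, and 75 gated croton oil cells, 1.27% of those gated, fell in the T cell-like cluster. Among gated cells in Langerhans-like clusters alone, the log2 change of Il2rg with croton oil was 1.71, and among gated cells with no UMI of Cd3e, Cd3g, Trdc, S100a8, S100a9, Retnlg, Ly6c2 or Krt14 it was 1.72, a subset added after seeing the data. Thinned cells with Il2rg made up 1.76%, 8.96% and 4.01%. Both chains were seen in the same thinned cell in 9, 211 and 88 cells, or 0.105%, 3.59% (3.13 to 4.09) and 1.68% (1.35 to 2.07). Il2rg thus had the lower CPM of the pair in both treated libraries. The genes span 30156 bases (Il21r) and 3878 bases (Il2rg), and the part of gene length or capture in this difference was not tested.

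Counted over the list, 9 of the 10 chains had at least 20 CPM in croton oil or untreated cells and were compared, and 2 of them, Il21r and Il2rg, were at least 2-fold higher with croton oil, while 0 were at least 2-fold lower. Over all genes compared, the share was 5.50% for higher and 5.50% for lower. With microneedle 8 chains were compared, and 1, Il21r, was at least 2-fold higher and 0 lower, against 3.88% higher and 1.76% lower over all genes. Between croton oil and microneedle 0 of 9 chains differed by 2-fold on the log2 scale with the pseudocount, against 1.61% higher and 1.03% lower over all genes. By the plain ratio of levels Il2rg was 2.24-fold (2.10 to 2.39) higher after croton oil than after microneedle, which is 0.95 on that scale. Il21r and Il2rg entered the comparison with untreated cells only through their level in treated cells, so they had to be high to be counted. The members were picked from these contrasts, so nothing is read from these counts. The median log2 change over all 10 chains was 0.38 with croton oil and 0.16 with microneedle, against -0.03 and 0.02 over all genes compared.

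The IL-4 and IL-13 receptor chains moved in opposite directions. Il4ra, which binds IL-4 and is part of both the receptor with Il2rg and the receptor with Il13ra1, stood at 71.3, 137 and 130.5 CPM. Both injured libraries were above the untreated one by close to 2-fold, 1.92-fold (1.87 to 1.98) with croton oil and 1.83-fold (1.78 to 1.88) with microneedle. Il13ra1, the chain that binds IL-13 and joins Il4ra, stood at 193, 120.4 and 144 CPM. Here the untreated library was the highest, 1.61-fold (1.57 to 1.65) above croton oil and 1.35-fold (1.32 to 1.38) above microneedle. By CPM, untreated cells therefore held more Il13ra1 than Il4ra, croton oil cells held more Il4ra than Il13ra1, and microneedle cells held Il13ra1 and Il4ra at 144 and 130.5. Among thinned cells, Il4ra was seen in 16.1%, 32.6% and 29.9% and Il13ra1 in 40.7%, 27.9% and 30.8%. Cells with both made up 6.45%, 8.65% and 9.14%, and cells with Il4ra and Il2rg 0.316%, 3.09% and 1.20%.

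Il6ra, which binds IL-6, stood at 227, 135 and 199.9 CPM. Il6st, the gp130 signalling chain, stood at 217, 111 and 219 CPM. Both chains were lowest after croton oil. Untreated cells held 1.68-fold (1.65 to 1.72) more Il6ra and 1.96-fold (1.91 to 2.01) more Il6st than croton oil cells. After microneedle Il6ra was 0.879 (0.863 to 0.896) of the untreated level and Il6st 1.01 (0.987 to 1.02), an interval that includes no difference. Cells with both chains made up 18.3%, 7.26% and 15.7% of thinned cells. Of these chains, Il6st lay just short of 2-fold in croton oil against microneedle (log2 -0.95), and reached it (1 chain lower) in gated cells without UMIs of the other lineages named above.

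Il15ra, which holds IL-15 at the cell surface for neighbouring cells, was scarce in gated cells. It had 83, 68 and 102 UMIs, or 0.770 (0.614 to 0.955), 0.837 (0.650 to 1.06) and 1.06 CPM (0.862 to 1.28). The interval of croton oil overlaps both others, and the gene was not compared, being under 20 CPM throughout. With no doublets removed it stood at 0.893 (0.733 to 1.08), 1.86 (1.59 to 2.16) and 1.30 CPM (1.09 to 1.54), with intervals apart, so the croton oil value moved by over 2-fold with doublet removal. Il10ra, the IL-10-binding chain, stood at 69.3, 113 and 83.4 CPM. It was highest after croton oil, 1.64-fold (1.59 to 1.69) above untreated, and 1.20-fold (1.17 to 1.24) above it after microneedle. Of the interferon-gamma receptor chains, Ifngr1, which binds the ligand, stood at 31.1, 52.5 and 37.9 CPM, and Ifngr2, the signalling chain, at 177, 189 and 185 CPM. Ifngr1 followed the order seen for Il10ra, with log2 changes of 0.67 and 0.25 for each of them. Ifngr2 moved least of the chains at 20 CPM or more with croton oil, by 0.09, and had the higher CPM of its pair in each library.

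**Figure D2:**
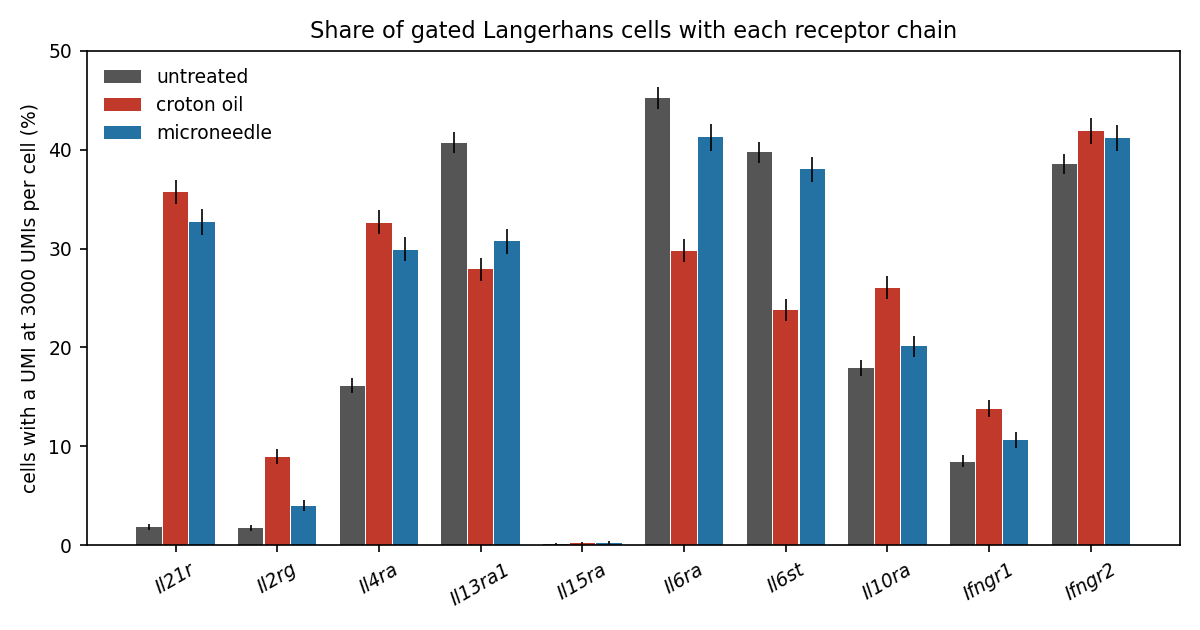
Share of gated Langerhans cells with at least 1 UMI of each receptor chain after thinning every cell to 3000 UMIs (%, bars from 0, exact Clopper-Pearson 95% intervals), 1 bar per library. Il21r goes from 1.81% to 35.7% and 32.7%, Il13ra1 is highest in the untreated library at 40.7%, and Il6st is lowest in the croton oil library at 23.8%.

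The order of the levels differed between the libraries. In untreated cells it ran Il6ra, Il6st, Il13ra1, Ifngr2, Il4ra, Il10ra, Ifngr1, Il21r, Il2rg and Il15ra, and the intervals of neighbours overlapped for Il4ra and Il10ra and for Il21r and Il2rg. After croton oil Il21r stood first, with overlaps of Il4ra with Il6ra and of Il10ra with Il6st. After microneedle Il21r also stood first, but its interval overlapped that of Il6st. Il15ra was last in each library.

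Il21r also varied among the Langerhans cells of a library. Joint clustering, which used all genes and so gives only a description, placed 713 gated microneedle cells in the cluster that held most untreated cells, and Il21r was at 68.2 CPM in them. The 3498 gated microneedle cells of the main microneedle cluster held 249 CPM. Gated untreated cells held 6.98 CPM in the first of these clusters and 28.6 CPM (93 cells) in the second. Croton oil cells held 213 CPM in their own main cluster and 141 CPM in a cluster shared by all libraries. Treated cells of every cluster with at least 20 gated cells of that library held more Il21r than the 7.13 CPM of untreated cells. Cycling cells, with at least 2 UMIs of Mki67 and Top2a together, held 7.72, 236 and 227 CPM of Il21r. The remaining cells, neither cycling nor migratory, held 6.97, 196 and 217 CPM. Gated cells with migration genes (at least 1 UMI of Ccr7 and 2 of Fscn1) numbered 74 after croton oil and held 172 CPM (149.6 to 198). Only 10 untreated and 7 microneedle cells met that rule, and no level is given for them. Gated cells without a Cd207 UMI, numbering 236, 1366 and 254, held Il21r at 9.52, 213 and 299 CPM, and those with one at 7.09, 199.6 and 217 CPM.

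Outside the gate, cells were named from markers where these allowed it, and each name means only that the cluster resembles the type. The named classes were Langerhans-like (151, 474 and 140 cells), keratinocyte-like (240, 218 and 96), neutrophil-like (213 croton oil, 417 microneedle), T cell-like (134 croton oil) and monocyte or macrophage-like (365 microneedle). The last held 5 of 6 melanocyte markers too. The Langerhans-like name depends on the clustering in the treated libraries. At Leiden resolution 1 the class held 118 croton oil and 67 microneedle cells, and with no doublets removed 69 and 116. The main croton oil cluster, led by C1qa of the macrophage list, was then left unnamed. At Leiden resolution 1 a cluster led by Tmem267, C1qb and Oasl1 (57 croton oil and 63 microneedle cells outside the gate) was unnamed too. A further cluster, with 651 croton oil and 152 microneedle cells, was led by Ccl22, Fscn1 and Ccr7, genes known from migrating dendritic cells. It met 6 of 10 Langerhans cell markers, but its top 10 genes held none of them and included Flt3, a dendritic cell marker, and it was left unnamed. Classes with fewer than 20 cells in a library are not described for that library.

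Il21r was highest in Langerhans cells. Langerhans-like cells outside the gate held 6.58, 170.3 and 191 CPM, close to the gated cells. The Ccr7-led cluster held 77.3 CPM (71.8 to 83.1) after croton oil and 134 CPM (119.9 to 149) after microneedle. These are 38.2% and 60.8% of the gated level of the same library, where Cd207 was at 39.5% and 30.6%, Mfge8 at 39.7% and 49.8% and Cd74 at 18.2% and 7.83%. Keratinocyte-like cells held 0.824, 17.3 and 10.7 CPM. Neutrophil-like cells held 10.3 and 10.0 CPM, T cell-like cells 23.1 CPM and monocyte or macrophage-like cells 18.7 CPM. In these last 4 classes Il21r lay at 4.55% to 11.6% of the gated level of its library, and Langerhans cell genes (Cd207, Mfge8 and Cd74) were also counted there. In T cell-like cells Il21r was at 11.4% and these genes at 3.86% to 5.81%. In monocyte or macrophage-like cells it was at 8.50% and they at 3.38% to 4.26%. In croton oil neutrophil-like cells it was at 5.09%, from 8 UMIs, and they at 1.62% to 2.36%. Il21r was above the Langerhans cell genes in these classes at this clustering. At Leiden resolution 1 the T cell-like value was 4.86 CPM (1.32 to 12.4, from 4 UMIs) in place of 23.1 CPM from 22 UMIs. The Langerhans cell genes were lower there too, so that Il21r was at 2.40% and they at 0.371% to 1.80%. With no doublets removed, Il21r was at 14.9% in T cell-like cells and they at 6.03% to 13.4%, and in croton oil neutrophil-like cells it lay among them, at 6.49% against 3.24% to 9.35%. In microneedle neutrophil-like cells (4.55% against 3.03% to 4.52%) and croton oil keratinocyte-like cells (8.54% against 6.32% to 7.84%) it was close to them. With no doublets removed the microneedle neutrophil-like value was 20.4 CPM in place of 10.0, or 9.24% against 3.30% to 6.74%. In untreated and microneedle keratinocyte-like cells it was below them, at 11.6% and 4.87%. The part of Langerhans cell transcripts in these Il21r counts was not tested.

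**Figure D3:**
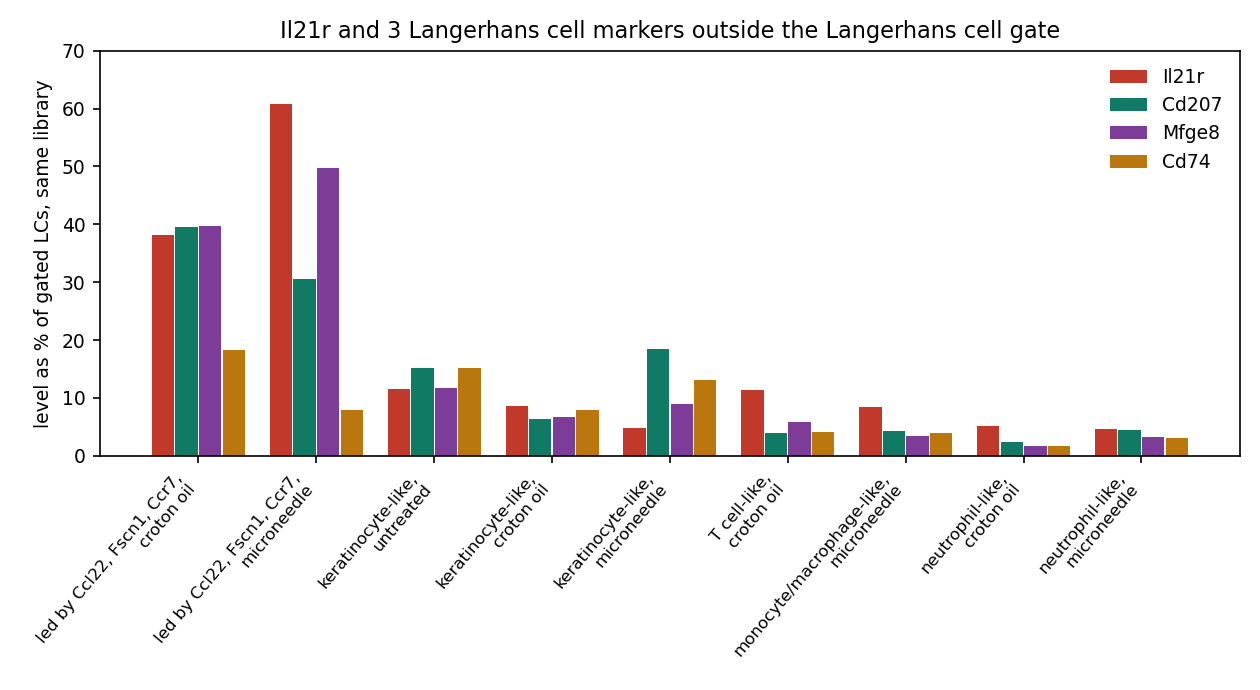
Il21r and 3 Langerhans cell genes (Cd207, Mfge8, Cd74) in cell classes outside the Langerhans cell gate, as a percentage of the level in gated Langerhans cells of the same library (bars from 0). Il21r reaches 38.2% and 60.8% in the Ccr7-led cluster and 4.55% to 11.6% in the other classes. The T cell-like bar of 11.4%, 23.1 CPM, is 4.86 CPM, or 2.40%, at Leiden resolution 1.

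Il15ra had the opposite pattern. Outside the gate, the Ccr7-led cluster held it at 91.5 CPM (85.5 to 97.8) after croton oil and 135 CPM (121 to 151) after microneedle. Gated Langerhans cells stood near 1 CPM. In thinned cells of that cluster it was seen in 15.1% and 26.2%, against 0.204% and 0.229% of gated cells. Keratinocyte-like cells held it at 48.3, 30.9 and 25.9 CPM, monocyte or macrophage-like cells at 25.7 CPM and neutrophil-like cells at 2.57 and 15.3 CPM. Il6ra went the other way, with 23.1 and 28.5 CPM in the Ccr7-led cluster, against 135 and 199.9 CPM in gated cells and 103 to 193 CPM in keratinocyte-like cells. The croton oil value of Il6ra in that cluster was 27.8 CPM at Leiden resolution 1. All these values cover only the cells of the cluster outside the gate. Its 86 gated croton oil cells held Il15ra at 3.80 CPM (1.23 to 8.87), Il6ra at 56.3 CPM and Il21r at 164 CPM. The other chains stood in the Ccr7-led cluster at 47.1% to 88.9% of the gated level, apart from Il2rg in the microneedle library, at 211%.

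Il2rg, Il13ra1 and Ifngr1 reached their highest levels in other classes, while Ifngr2 was highest in Langerhans cells. Ifngr2 stood at 177, 189 and 185 CPM in gated cells. Outside the gated and Langerhans-like cells it reached at most 147 CPM, in monocyte or macrophage-like cells. Il2rg was highest in T cell-like cells, at 243 CPM (213 to 277), followed by 54.2 CPM in monocyte or macrophage-like cells. Il13ra1 was 304 CPM and 221 CPM in neutrophil-like cells and had 1 UMI in the T cell-like cells. Ifngr1 was 320.2 and 183 CPM in neutrophil-like cells, 177 CPM in T cell-like and 145 CPM in monocyte or macrophage-like cells, all above any gated Langerhans cell level. Il6st was lowest in neutrophil-like cells, at 15.4 and 12.1 CPM, where Il6ra stood at 166 and 135 CPM. Il4ra was at 216 CPM (185 to 251) and 174 CPM (156 to 194) in neutrophil-like cells, and at 193 CPM (179.9 to 206) and 158 CPM (135 to 185) in Langerhans-like cells outside the gate of the same libraries, with overlapping intervals. At the main clustering Il10ra ranged from 59.1 to 116 CPM in the leukocyte classes outside the gate and reached at most 14.2 CPM in keratinocyte-like cells. The highest of these, in croton oil Langerhans-like cells, was 123 CPM (103 to 146) at Leiden resolution 1.

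**Figure D4:**
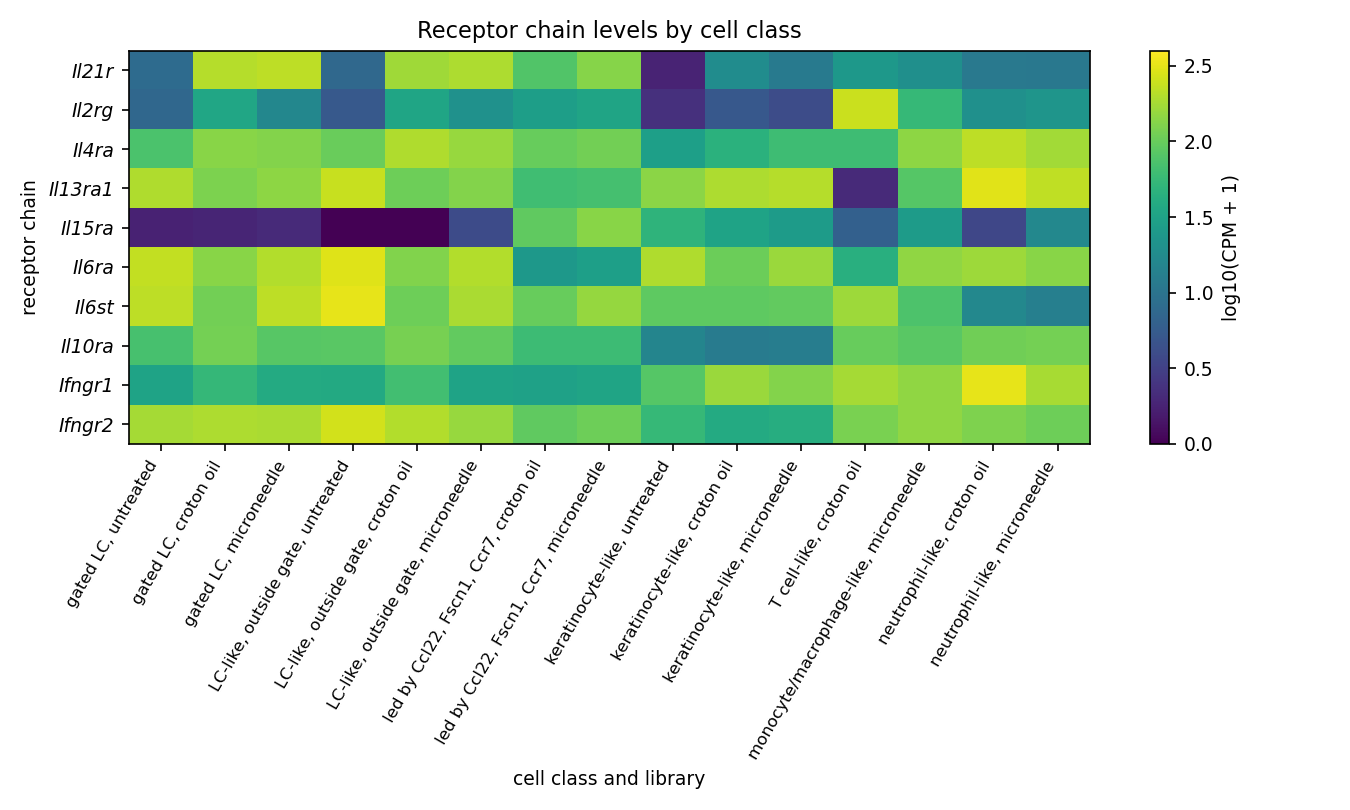
Level of each receptor chain (rows) in each cell class and library with at least 20 cells (columns), coloured by log10(CPM + 1). Il21r is bright in Langerhans cells of the treated libraries and in the Ccr7-led cluster, Il2rg in T cell-like cells, and Il15ra in the Ccr7-led cluster, keratinocyte-like cells and monocyte or macrophage-like cells while dark in gated Langerhans cells.

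Keratinocyte-like cells were the only class outside the Langerhans lineage with enough cells in all 3 libraries for a before and after comparison. Il4ra was higher in them after both injuries, at 28.4, 44.9 and 61.3 CPM, as in Langerhans cells. Ifngr1 was also higher, at 81.6, 160.2 and 130.3 CPM. Il13ra1 was higher in keratinocyte-like cells, at 140.4, 188 and 205 CPM, and lower in Langerhans cells after the same injuries. Ifngr2 was lower in keratinocyte-like cells, at 54.1, 37.5 and 41.1 CPM, while in gated Langerhans cells it differed by only 0.09 and 0.06 (log2). In Langerhans-like cells outside the gate Ifngr2 stood at 263, 200.1 and 158 CPM, but with no doublets removed the croton oil value was 276 CPM, which turns its direction, and at Leiden resolution 1 the microneedle value was 206 CPM. Il6ra was lower in both classes after croton oil, with 193 and 103 CPM in untreated and croton oil keratinocyte-like cells. Their Il6st was level, at 90.0, 89.8 and 92.8 CPM. These cells had medians of 24878, 50698 and 26738 UMIs, the croton oil cells being the deepest, and their Cd74, a Langerhans cell transcript, was at 2921, 1727 and 2552 CPM. The class held all 8 basal and all 8 suprabasal keratinocyte markers, so it joins both kinds of cell. The part of depth, of this mix and of Langerhans cell transcripts in these values was not tested.

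**Figure D5:**
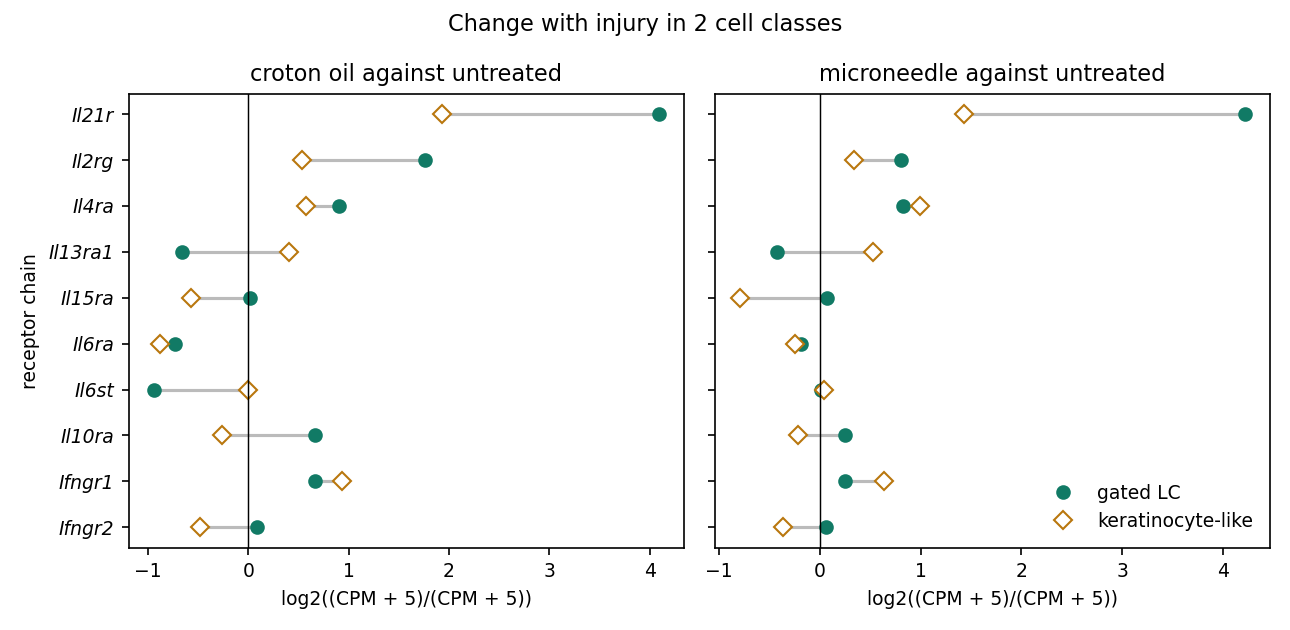
Log2 change, log2((CPM + 5)/(CPM + 5)), of each receptor chain with croton oil (left) and microneedle (right) against the untreated library, in gated Langerhans cells (filled circles) and keratinocyte-like cells (open diamonds). Il13ra1 lies at -0.66 and -0.42 in Langerhans cells and at 0.41 and 0.53 in keratinocyte-like cells.

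The rest of the receptor family was read from a list of 25 partner and related chains. Of these, 7 were compared in gated Langerhans cells, and 2, Il7r and Csf2rb, were at least 2-fold higher with each injury, while 0 were lower. Over all genes compared 5.50% were higher with croton oil and 3.88% with microneedle. Il7r, which pairs with Il2rg in the IL-7 receptor and with Crlf2 in the TSLP receptor, stood at 217, 911 and 591 CPM. Csf2rb, the common beta chain for GM-CSF, IL-3 and IL-5, stood at 181, 455 and 372 CPM. Crlf2 stood at 90.8, 170.1 and 103 CPM, Csf2ra at 89.7, 87.2 and 110.0 CPM, and Ifnar1, an interferon alpha and beta chain, at 149.7, 142 and 156 CPM. The median change of the 7 was 0.87 and 0.52, against -0.03 and 0.02 over all genes compared. Partner chains that would complete some receptors were scarce in Langerhans cells. Il2rb, which forms the IL-15 receptor with Il2rg, stood at 0.0278, 5.64 and 1.14 CPM beside 666 CPM in T cell-like cells. Il10rb, the partner of Il10ra, stood at 3.43, 5.75 and 5.80 CPM, and thinned cells with both IL-10 chains made up 0.176%, 0.493% and 0.306%. Il2ra, the high-affinity IL-2 chain, was at 69.3 and 48.5 CPM in the Ccr7-led cluster and under 1 CPM in gated cells.

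Of 14 ligands, few were detected. Il21 had 0 UMIs in every class, which in gated cells allows up to 0.0278, 0.0369 and 0.0311 CPM (3 counts of the total), so no source of the ligand was found at this depth. Il9 had 0 UMIs too, and Ifng had 3 UMIs, all in the Ccr7-led cluster after croton oil. Il15 was the most abundant ligand in untreated Langerhans cells, at 61.8, 13.0 and 41.7 CPM, and was at least 2-fold lower after croton oil (log2 -1.89). Il10 stood at 0.984, 32.3 and 10.3 CPM and was at least 2-fold higher after croton oil (log2 2.64). Osm, an IL-6 family ligand, stood at 0.965, 18.2 and 0.995 CPM. Il13 had 51 UMIs in the 134 T cell-like cells and 30 in the 5916 gated croton oil cells. Il6 had at most 17 UMIs in any class.

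Of 11 Janus kinases and STATs, 8 were compared and 0 passed 2-fold with either injury. Over all genes 5.50% were higher and 5.50% lower with croton oil, and 3.88% higher and 1.76% lower with microneedle, so a count of 0 among 8 is near the background. Stat3, which carries IL-6, IL-10 and IL-21 signals, was nearest, at 169.7, 331 and 284 CPM. Jak2 stood at 185, 198 and 217 CPM, Stat6, the IL-4 and IL-13 STAT, at 38.8, 41.3 and 48.8, Stat2 at 68.6, 44.1 and 75.4, Stat5a at 37.2, 26.8 and 25.5, and Stat5b at 62.7, 45.2 and 47.2. Jak3, the kinase bound by the common gamma chain, was at 1.62, 5.98 and 3.15 CPM, too low to compare. The median change of the 8 was -0.38 and 0.07, against -0.03 and 0.02 over all genes. Of 12 feedback inhibitors and phosphatases 9 were compared, with 1, Socs3, at least 2-fold higher after croton oil and 0 after microneedle. Socs3 stood at 23.6, 112 and 36.4 CPM, Socs1 at 49.5, 82.9 and 43.6, Socs5 at 72.2, 83.4 and 131, Socs6 at 28.1, 16.4 and 23.7 and Pias1 at 179, 96.8 and 148. Their median change was -0.08 and -0.08, beside those all-gene medians, and the counts are near the same all-gene shares.

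Genes known to answer these receptors were read from 2 lists. In the list for IL-6, IL-10 and IL-21 (STAT3), 10 of 11 were compared, 4 were at least 2-fold higher with croton oil and 1 with microneedle, and 0 were lower. The shares over all genes compared were 5.50% and 3.88% for higher. Il4ra is in that list and among the receptor chains above. Prdm1, which encodes the repressor Blimp-1, stood at 49.2, 168 and 146 CPM and passed 2-fold with both injuries. Socs3, Pim1 (262, 577 and 358 CPM) and Nfil3 (51.1, 138 and 81.3 CPM) passed 2-fold with croton oil. Socs3 is in this list and in the feedback list. Cebpd stood at 199.6, 131 and 97.6 CPM and Junb at 2436, 2045 and 1805. The median change was 0.73 and 0.49, against -0.03 and 0.02 over all genes. In the list for IL-4 and IL-13 (STAT6), 5 of 12 were compared with croton oil and 3 with microneedle. Mgl2, a lectin gene, stood at 53.9, 338 and 15.6 CPM, above untreated after croton oil and below it after microneedle. Mrc1, the mannose receptor gene, stood at 0.325, 51.8 and 1.26 CPM, and Cd209a, another lectin gene, at 23.0, 2.71 and 4.09. Ccl17, a chemokine gene, stood at 26.7, 14.7 and 3.18 CPM. With croton oil 2 were higher and 1 lower, with microneedle 0 higher and 3 lower. Over all genes the shares were 5.50% higher and 5.50% lower with croton oil, and 3.88% higher and 1.76% lower with microneedle. Mrc1 and Cd209a with croton oil, and Mgl2, Ccl17 and Cd209a with microneedle, reached 20 CPM in only the library where they were higher, which favours a large difference, so nothing is read from these counts. The same holds for Il10 and Il15 with croton oil among the ligands.

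The genes whose pattern was most like that of Il21r were found by Pearson's r of log2(CPM + 5) over 15 class-by-library sums of at least 50 cells, among 6953 genes. They were Pgf (0.938), Htr7 (0.935), Vav3 (0.930), Scube1 (0.900), Rgs9 (0.882) and Gm49361 (0.881). The points share libraries, depth and transcripts between classes, so r is a description. Pgf, a growth factor gene of the VEGF family, stood at 6.50, 180.4 and 84.1 CPM in gated cells. Htr7, a serotonin receptor gene, stood at 5.53, 158 and 114 CPM. Vav3, a guanine nucleotide exchange factor gene, was high already in untreated cells, at 382, 1050 and 1210 CPM. All 6 were higher in both treated libraries than in the untreated one, a direction that picking by likeness to Il21r favours. Il21r shared with Scube1, Rgs9, Vav3 and Gm49361 a higher level after microneedle than after croton oil, an order that for Il21r depends on the scaling.

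Langerhans cells with and without an Il21r UMI were compared within a library. The split rests on whether a UMI was captured after thinning, and the unthinned shares of 67.7% and 63.4% show that many cells counted as without it hold the transcript. It therefore limits how far the groups can differ. At 3000 UMIs per cell, 2100 croton oil cells with and 3784 without were compared over 3655 genes, and 1709 and 3522 microneedle cells over 3831 genes. No gene reached 2-fold in either library on log2((CPM + 5)/(CPM + 5)). After microneedle the largest values on that scale were for C1qc (0.91, from 58.9 against 29.0 CPM), Tgfbi (255 against 144), Ly6a (238 against 147), Ppa1 (89.1 against 54.9) and Htr7 (142 against 89.2). The lowest there were Adgre4 (28.7 against 50.6), P2rx2, Pid1, H2-M5 and Nedd4. After croton oil the highest were Ifitm1 (78.4 against 53.5), Snx10, Spsb1, Lrp6 and Arl5a, and the lowest Gm56663 (29.7 against 58.8), Krt14, Mrc1 (39.4 against 65.6), Lgals7 and H2-M5. Of the other chains, Il4ra stood at 156 against 118 CPM in microneedle cells with and without Il21r, and at 150.2 against 137 in croton oil cells. Il2rg was seen in 10.0% (8.79 to 11.4) of croton oil cells with Il21r and 8.35% (7.49 to 9.28) of those without, and in 5.15% (4.15 to 6.31) and 3.46% (2.88 to 4.12) of microneedle cells. The Il2rg intervals overlap in the croton oil library and lie apart in the microneedle library. Cells with an Il21r UMI also had more UMIs before thinning, with medians of 12853 against 12501 and 18225 against 17076.

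Some members overlap other annotated genes, and whether reads were counted by strand is not given in the sources used here. Il4ra, Il13ra1, Il6ra and Il6st each overlap a noncoding gene on the other strand, and Il10ra overlaps a pseudogene on the other strand and a microRNA gene on its own. Their counts could include transcripts of these genes. Il21r, Il2rg, Il15ra, Ifngr1 and Ifngr2 overlap no annotated gene. In GRCm39, Il10ra lies on chromosome 9, Il13ra1 on chromosome X, Il6ra on chromosome 3, Il6st on chromosome 13, Il15ra on chromosome 2, Ifngr1 on chromosome 10 and Ifngr2 on chromosome 16.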

How the data were processed

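The files held unnormalized UMI counts per gene and cell barcode, deposited by the authors as called-cell matrices from Chromium 3' v3.1 libraries, per the labels. They were written by Cell Ranger 8.0.0, per the file headers, on GRCm39, per the submitters' processing notes, and the annotation is not given in the sources used here. UMI counts collapse PCR copies, so each stands for 1 captured molecule. CPM was not corrected for gene length or capture, so a comparison of levels between genes is one of counts. Of 34289 features, 33767 had identifiers in GENCODE M39, from which gene positions were taken.

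Cells with at least 500 genes and at most 10% mitochondrial UMIs were kept. Scrublet's automatic calls marked 1, 0 and 0 cells, which did not work, so the highest-scoring cells were removed at 0.8% per 1000 cells (776, 538 and 381), leaving 9051, 7620 and 6474. Retained cells were clustered jointly without correction between libraries (scanpy 1.11.5, 2000 variable genes, 30 components, 15 neighbours, leidenalg 0.10.2, resolution 0.5). Clusters were named on cells outside the gate from listed markers, present at 20 CPM and at least 0.2 of the highest cluster, with at least 3 markers and 0.5 of a list. The clusters were known when this naming rule was chosen, and a cluster was left unnamed where its top 10 genes held more markers of another class.

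UMIs were summed per class and library, with exact Poisson 95% intervals for CPM and exact Clopper-Pearson intervals for shares, which cover counting error only. Cells were thinned to 3000 UMIs for shares. With 1 library per group no test between conditions was possible, so no p-value is given. Genes with at least 20 CPM in either library were compared on log2((CPM + 5)/(CPM + 5)), and 2-fold counted as called. The calculation was tested on simulated counts. TMM factors came from edgeR 4.0.16 in R 4.3.3, and the other values from Python 3.11.15, numpy 2.4.6, scipy 1.17.1 and pandas 2.3.3. The text names all 10 members, the 2 genes of each list with the largest rise and the 2 with the largest fall, the most abundant ligand, the 6 genes most like Il21r, and the 5 highest and 5 lowest genes of Il21r-positive cells; a few further list genes and partner chains were named after their values were seen. The members and lists were chosen with earlier results of these data known. The values of 1 further list of response genes are not reported here. Motifs were searched on both strands of the 250 bases before RefSeq starts.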

Additional observations from a re-analysis of the deposited data

Results flagged for a closer look

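Some chains moved in opposite directions in Langerhans cells and in keratinocyte-like cells under the same injury, with counting intervals that exclude no change in both classes. Each difference below is the log2 change in gated Langerhans cells minus that in keratinocyte-like cells, and it was not tested, since each condition has 1 library. For Il13ra1 it was -1.07 with croton oil (-0.66 in Langerhans cells, 0.41 in keratinocyte-like cells) and -0.95 with microneedle (-0.42 and 0.53). For Ifngr2 it was 0.57 with croton oil (0.09 and -0.48) and 0.42 with microneedle (0.06 and -0.36). The Ifngr2 changes in gated cells are small and were as low as 0.02 and 0.01 under the alternatives tried. In Langerhans-like cells outside the gate Ifngr2 differed by -0.39 (-0.67 to -0.11) with croton oil and -0.71 (-1.08 to -0.38) with microneedle. With no doublets removed, however, the croton oil level there was 276 CPM (231 to 328, 69 cells) against 263 CPM untreated. Il13ra1 in Langerhans-like cells outside the gate differed by -1.14 and -0.85 at the main clustering. The 2 comparisons share the untreated library. Keratinocyte-like cells also held Cd74 at 2921, 1727 and 2552 CPM in the untreated, croton oil and microneedle libraries, and they join basal and suprabasal cells. The part of Langerhans cell transcripts and of this mix in these differences was not tested.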

How the results depend on the processing

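No paired analysis was possible because each group has 1 library and the labels give no replicate numbers, and for the same reason no replicate could be left out. The count of chains at least 2-fold changed was 2 for microneedle (Il21r and Il4ra) with an MHC class II share of at least 5%. For croton oil it was 3 with that share and with TMM factors (Il4ra gained), and 3 in gated cells without UMIs of other lineages (Il6st gained, lower). It was 1 (Il21r) with a filter of 50 CPM, which removes Il2rg from the comparison. Between croton oil and microneedle it was 1 with TMM factors (Il2rg), 1 with a pseudocount of 1 CPM (Il2rg) and 1 in gated cells without UMIs of other lineages (Il6st). The Il21r difference between the injuries was 0.01 with TMM factors. TMM factors were 1.019, 0.945 and 1.038. They moved the median change of all genes with croton oil from -0.03 to 0.08. Of the genes at least 2-fold changed, the higher ones went from 376 of 752 to 482 of 767, or 62.8%, with croton oil, and from 61.1% to 74.6% between croton oil and microneedle. The filter of 50 CPM left 500, 251 and 116 genes changed, against 752, 378 and 175. Over these alternatives Il21r ranged from 4.01 to 4.64 with croton oil and from 4.18 to 4.77 with microneedle, Il4ra from 0.86 to 1.08 and from 0.79 to 1.01, and Il6st with croton oil from -1.03 to -0.77. Il15ra with croton oil reached 1.41 when the Ccr7-led cluster was counted in. Changes within counting error of 0 took either sign, as for Ifngr2 between the injuries (-0.02 to 0.16) and Il6st with microneedle (-0.04 to 0.09). Depth limits Il15ra in gated cells and all values of classes with few cells. The alternatives without UMIs of other lineages and with the Ccr7-led cluster were chosen after seeing the data.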
